A study of Mus musculus with 8 samples.

Results

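Thymic dendritic cells sorted as Sirpa-positive were compared with those sorted as Sirpa-negative over 2 maturation states at once, to see which subset differences were present in mature and in immature cells alike. All 8 of the 8 arrays of the series entered the comparison. The 4 groups, each of 2 arrays, were Sirpa-positive mature cells (replicates 1 and 6), Sirpa-positive immature cells (replicates 3 and 5), Sirpa-negative mature cells (replicates 2 and 8) and Sirpa-negative immature cells (replicates 4 and 7). All were sorted dendritic cells from mouse thymus, in a study concerned with CD40, a receptor through which T cells signal to antigen-presenting cells. The labels give no strain, age, sex, genotype or treatment, and name neither the marker of maturity nor the mice behind each array. The pooled p-values below rest on the spread between arrays of a group and on how uneven the subset difference was between the states, and the spread between arrays may be only technical. A sort gate also holds a mixture, and in bulk RNA fewer cells of a type and less RNA per cell cannot be told apart.

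Conventional dendritic cells take up antigen and present it to T cells, and in the thymus they take part in deleting self-reactive thymocytes and in generating regulatory T cells. Type 1 cells depend on the transcription factors Irf8 and Batf3, carry Xcr1 and Clec9a, lack Sirpa and excel at presenting material from dead cells on MHC class I. Type 2 cells carry Sirpa, an inhibitory receptor that binds CD47 on other cells, and depend on Irf4. Both types mature, a change marked by Ccr7, which moves genes in both subsets and can hide or mimic a subset difference in a single state.

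Levels are given as log2 of the processed Cy3 signal minus the array's 75th percentile, so a level of 0 is the 75th percentile of that array. The pooled difference is Sirpa-positive minus Sirpa-negative with maturation as an additive term, and it is the mean of the differences within mature and within immature cells. It was called at an adjusted p under 0.05. A called difference was termed kept where both states had the same sign and the smaller difference was at least 0.5 of the larger.

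The promoter letters of 6 genes with large differences kept in both states are shown first, because their sequences hold a motif of factors with a known part in myeloid and dendritic cells. Each runs 5′ to 3′ on the gene's strand, from 250 bases before to 50 after the first listed start, in RefSeq's mouse assembly GRCm38.p6. Capitals mark GGAA and GAAA parted by 2 bases, a composite element of Ets and IRF factors, GAAA and GAAA parted by 2 bases, the interferon-stimulated response element, or TTGCNNAA, the C/EBP motif, on either strand. Mmp12 lies at chr9:7344147-7344446 (plus strand), Trem2 at chr17:48346151-48346450 (plus strand), Clec4a1 at chr6:122921598-122921897 (plus strand), Cd209a at chr8:3748935-3749234 (minus strand), Gpr33 at chr12:52028014-52028313 (minus strand) and Gpr141b at chr13:19732902-19733201 (minus strand). The first 4 were higher and the last 2 lower in Sirpa-positive cells.
Mmp12: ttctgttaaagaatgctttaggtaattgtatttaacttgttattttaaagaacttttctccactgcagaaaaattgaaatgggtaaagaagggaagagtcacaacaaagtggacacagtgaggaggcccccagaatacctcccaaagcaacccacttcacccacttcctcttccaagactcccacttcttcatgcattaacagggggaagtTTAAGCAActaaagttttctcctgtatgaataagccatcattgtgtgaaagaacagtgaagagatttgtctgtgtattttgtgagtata
Trem2: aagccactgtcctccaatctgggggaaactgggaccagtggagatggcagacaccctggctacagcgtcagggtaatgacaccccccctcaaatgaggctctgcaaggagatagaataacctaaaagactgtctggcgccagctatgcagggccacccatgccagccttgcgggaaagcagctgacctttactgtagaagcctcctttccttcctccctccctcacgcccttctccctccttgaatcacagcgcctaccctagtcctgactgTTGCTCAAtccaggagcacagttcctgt
Clec4a1: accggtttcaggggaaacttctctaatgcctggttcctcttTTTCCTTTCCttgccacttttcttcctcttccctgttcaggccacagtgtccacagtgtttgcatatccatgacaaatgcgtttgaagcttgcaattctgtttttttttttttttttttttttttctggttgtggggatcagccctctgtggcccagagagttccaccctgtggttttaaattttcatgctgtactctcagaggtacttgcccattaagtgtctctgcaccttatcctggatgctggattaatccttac
Cd209a: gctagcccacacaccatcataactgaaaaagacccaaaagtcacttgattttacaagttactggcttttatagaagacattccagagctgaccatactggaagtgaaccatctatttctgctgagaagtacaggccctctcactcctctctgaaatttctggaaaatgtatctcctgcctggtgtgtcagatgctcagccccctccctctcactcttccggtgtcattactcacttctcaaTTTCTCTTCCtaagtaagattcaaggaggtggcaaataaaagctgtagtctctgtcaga
Gpr33: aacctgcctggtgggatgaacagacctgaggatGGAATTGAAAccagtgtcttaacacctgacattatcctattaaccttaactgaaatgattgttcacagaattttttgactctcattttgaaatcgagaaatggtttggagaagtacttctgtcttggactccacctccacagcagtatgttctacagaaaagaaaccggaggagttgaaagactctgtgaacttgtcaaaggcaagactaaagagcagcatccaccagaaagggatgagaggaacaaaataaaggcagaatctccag
Gpr141b: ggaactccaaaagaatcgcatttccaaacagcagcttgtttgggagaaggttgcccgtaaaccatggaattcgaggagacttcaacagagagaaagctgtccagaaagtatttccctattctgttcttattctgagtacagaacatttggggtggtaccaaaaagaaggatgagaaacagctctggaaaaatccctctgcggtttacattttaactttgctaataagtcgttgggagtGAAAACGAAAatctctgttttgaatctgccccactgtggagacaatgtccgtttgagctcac

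Of the 6 shown, Mmp12 and Trem2 hold the C/EBP motif, Clec4a1, Cd209a and Gpr33 the Ets and IRF element, and Gpr141b the interferon element. Of the 55 genes that led the comparison, were named as modest or were named throughout, 47 had a promoter in the table, of which 6 held the C/EBP motif, 5 the Ets and IRF element and 1 the interferon element. The C/EBP motif stood in Mmp12, Trem2 and Gmpr, which were higher, and in Fzd1, Cd8a and Tlr3, which were lower in Sirpa-positive cells. The Ets and IRF element stood in Clec4a1 and Cd209a, which were higher, and in Gpr33, Cnp and Cd8a, which were lower. Among kept genes, 12.2% of 813 promoters of the higher ones and 7.49% of 708 of the lower ones held the C/EBP motif, against 8.73% of the 11083 promoters of genes tested. The share was 17.3% of 324 for kept genes at least 4-fold higher and 7.77% of 103 for those at least 4-fold lower. The interferon element stood in 8.64% of promoters of genes at least 4-fold higher and in 7.77% of those at least 4-fold lower, against 3.16% of all tested, and it can overlap the Ets and IRF element (5.25%, 4.85% and 2.44%). The shares for AP-1 (TGANTCA) were 10.2%, 8.74% and 5.59%. NF-kB (GGGA and TCC parted by 3 bases) gave 5.25%, 4.85% and 5.14%, and RBPJ (GTGGGAA) 4.94%, 2.91% and 5.99%. These are matches of letters in a 300-base window, described without a test.

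The sort label was first set against the gene it used. Sirpa itself stood at 4.27 and 3.95 (mature) and 4.68 and 4.54 (immature) on the Sirpa-positive arrays, against -0.52 and -0.90 (mature) and -2.24 and -2.19 (immature) on the Sirpa-negative arrays. It was 56.7-fold higher in the Sirpa-positive subset (log2 difference 5.83 ± 0.38, with the standard error here and below, 4 arrays per subset, adjusted p = 4.74e-05) and was above background on every array. Flt3 and Zbtb46, a growth factor receptor and a transcription factor of conventional dendritic cells, and Itgax, which encodes CD11c, were above background on all 8 arrays. Across all genes, arrays of different subsets in the same state correlated at 0.927 to 0.956, arrays of the same subset in different states at 0.933 to 0.963, and the pairs within groups at 0.979 to 0.987. The first principal component, with 42.2% of the variance, separated the subsets, and the second, with 34.3%, the states. The arrays lay in 2 rows of 1 slide with 1 array of every group in each row. The 75th percentile of the signal ran from 147 to 313 intensity units, and 52.8% to 65.5% of spots were well above background. No spot (0) was saturated.

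Of 24145 genes tested, 3263 (13.5%) passed the pooled test. In the Sirpa-positive subset 1729 (7.16%) were higher and 1534 (6.35%) lower. The smallest called difference was 1.38-fold, the median called difference was 2.32-fold, and 2034 (8.42%) differed by at least 2-fold. The kept genes numbered 2627 (10.9% of those tested), of which 1334 (5.52%) were higher and 1293 (5.36%) lower. Of the called genes, 80.5% were kept, 636 had the same sign in both states with the smaller difference under 0.5 of the larger, and none (0) had opposite signs. The additive fit counts an uneven difference as residual spread, so such genes were called less readily. With 4 group means in its place 3554 genes were called and 2485 of them kept. Direction was the same within each row of the slide for 3262 of the 3263. The 2 rows together make up the pooled difference, so a call largely fixes this count. The median pooled difference over all genes was -0.10. Without Sirpa-positive immature replicate 3, 2137 genes were called and 869 of them were lower, and without replicate 5 of that group 964 were lower.

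The 2 within-state differences share no array and can be set against each other, although they share the slide and the processing. Over 24145 genes they correlated with Pearson's r = 0.731 and Spearman's rho = 0.476. The sizes were not even. Of the called genes, 2359 (72.3%) had the larger difference among immature cells and 904 among mature cells, with median sizes of 1.04 among mature and 1.37 among immature cells on the log2 scale. With the genes held to those called on all arrays, leaving out each array in turn kept that share between 68.3% and 73.6%. The genes were not called anew, so the narrow range follows in part from the fixed set. The share over all genes tested is not given, so 72.3% has no baseline here.

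**Figure D1:**
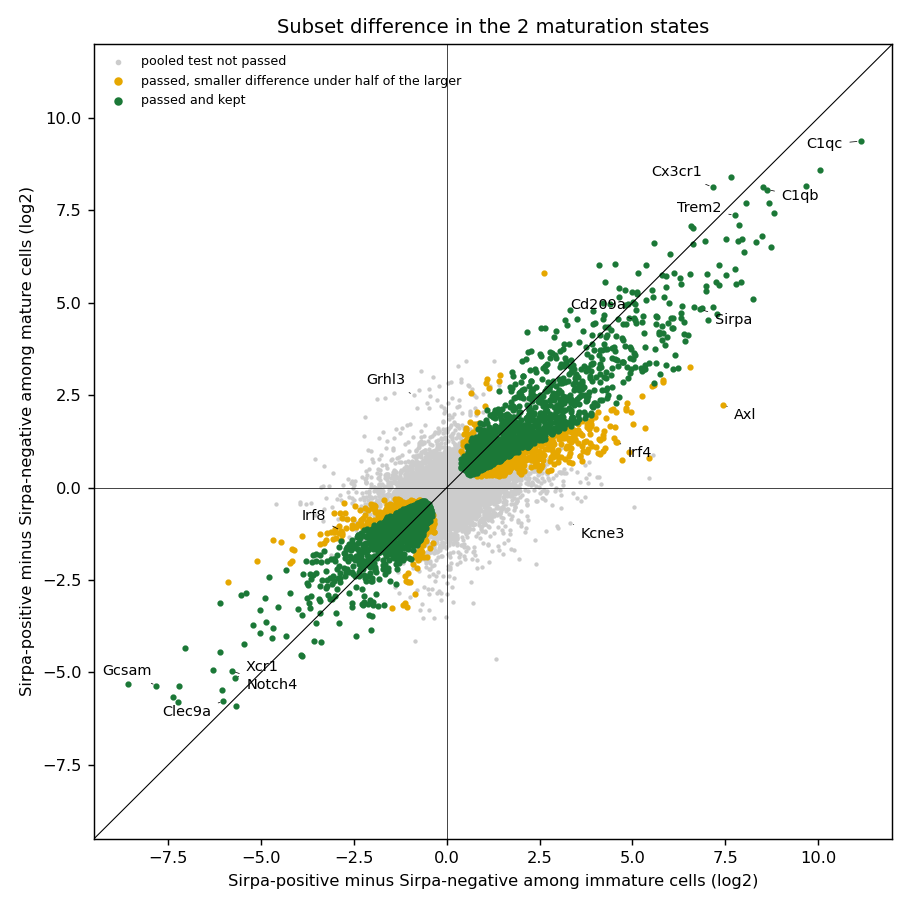
Each point is a gene, with the Sirpa-positive minus Sirpa-negative difference among immature cells on the x axis and among mature cells on the y axis, both in log2 units from 2 arrays per group, and the diagonal marks equal differences. The 2627 kept genes (green) run along the diagonal from C1qc to Gcsam, the 636 with the smaller difference under 0.5 of the larger (orange) include Axl, Irf4 and Irf8, and genes that did not pass are grey.

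By size, the 853 genes that differed at least 4-fold held 823 calls, 617 higher and 206 lower, of which 681 were kept. Between 2-fold and 4-fold 1211 genes were called, 657 higher and 554 lower, with 908 kept. Between 1.5-fold and 2-fold 1097 were called, 414 higher and 683 lower, with 913 kept. Under 1.5-fold 132 of 18790 were called, 41 higher and 91 lower, with 125 kept. Large differences were thus mostly higher in the Sirpa-positive subset, and those under 2-fold mostly lower, 455 higher against 774 lower. That split depended on the scaling: with each array scaled to its median, 457 modest calls were higher and 473 lower, so 49.1% were higher, against 37% with the 75th percentile. The modest calls numbered 1229 in all, and between 464 (without Sirpa-positive immature replicate 5) and 1484 (without Sirpa-positive mature replicate 6) with an array left out. Of the called genes, 234 of the higher genes were above background on no Sirpa-negative array and 63 of the lower genes on no Sirpa-positive array.

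**Figure D2:**
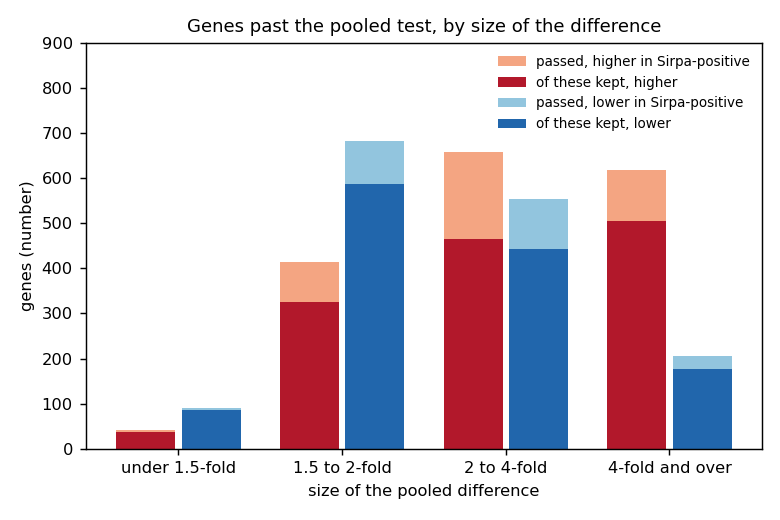
Number of genes past the pooled test by size of the difference, with genes higher in Sirpa-positive cells in red at the left and lower ones in blue at the right of each pair. The full height counts called genes and the dark part those kept in both states; from 617 against 206 at 4-fold and over, the balance turns to 414 against 683 between 1.5-fold and 2-fold.

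The largest kept differences in favour of Sirpa-positive cells were in the chains of C1q, the first component of the classical complement pathway. C1qa had levels of 7.18 and 7.12 (mature) and 7.71 and 7.40 (immature) on the Sirpa-positive arrays, against -1.71 and -1.16 (mature) and -1.95 and -3.05 (immature) on the Sirpa-negative arrays. The subsets did not overlap in either state, and the difference was 639-fold (9.32 ± 0.36 on the log2 scale, adjusted p = 3.86e-06). A lack of overlap in both states with the same direction was common, seen for 5904 of 24145 genes tested (24.5%). C1qb had levels of 7.28 and 7.37 (mature) and 7.97 and 7.61 (immature) on the Sirpa-positive arrays, against -0.70 and -0.77 (mature) and -0.66 and -1.01 (immature) on the Sirpa-negative arrays, a 325-fold difference (8.35 ± 0.18, adjusted p = 8.34e-07). C1qc was well above background on no Sirpa-negative array and was at least 495-fold higher. For such genes the fold is the Sirpa-positive mean over the lowest signal above background of any probe on the Sirpa-negative arrays. The probe's own signal was used where that was higher. Such a fold is a bound on this scaling only, and alternatives gave smaller differences. Over them the log2 difference of C1qc ran from 6.89 to 10.62 and that of Trem2 from 3.75 to 7.73.

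Behind C1q came genes of phagocytes and of lectin and chemokine recognition. Gpnmb, a transmembrane glycoprotein of lysosome-rich phagocytes, was at least 134-fold higher. Trem2, a receptor for lipids and dying cells that signals through Tyrobp, had levels of 1.61 and 1.56 (mature) and 2.60 and 2.19 (immature) on the Sirpa-positive arrays, against -6.11 and -5.44 (mature) and -5.22 and -5.49 (immature) on the Sirpa-negative arrays, at least 58.2-fold higher. Clec4a1 and Clec4a3, lectin receptors of the Dcir cluster, were at least 96.7-fold and at least 70.6-fold higher. They are close relatives, and cross-hybridisation between their probes was not tested. Cx3cr1, the receptor for fractalkine, stood at 4.12 and 3.94 (mature) and 5.12 and 4.74 (immature) on the Sirpa-positive arrays, against -3.98 and -4.21 (mature) and -1.93 and -2.52 (immature) on the Sirpa-negative arrays, a 199.7-fold difference with 2 of 4 Sirpa-negative arrays above background (adjusted p = 2.22e-06). A second probe of Cx3cr1 gave 6.68 on the log2 scale. Mmp12, the macrophage elastase (320.4-fold), the tetraspan gene Ms4a7 (278-fold), the secreted glycoprotein gene Olfml3 (234-fold) and Cp, the copper-binding ferroxidase ceruloplasmin (196-fold), were the others of the 12 largest fitted differences. Of 4 Sirpa-negative arrays, 3 measured Mmp12, 1 Ms4a7, 2 Olfml3 and 1 Cp, so these folds and their order rest in part on signals below background. Over the alternatives the log2 difference of Ms4a7 ran from 5.55 to 8.35 and that of Cp from 4.33 to 8.40. The same holds below for Clec1a, Sirpb1a and Pla2g7, measured on 1 of 4 arrays of the subset where they were lower. Tlr3, Cd209a, Cxcr3, Itga3 and Alas2 were measured there on 2 of 4, and Gpr33, Ildr1, Bcl11a, Ccr2, Stab1, Cd36, Mr1, Il1rn, C2, Timd4 and Acta2 on 3 of 4.

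The largest kept differences in favour of Sirpa-negative cells were smaller. Gpr141b, an orphan G protein-coupled receptor gene, had levels of -3.04 and -2.96 (mature) and -3.87 and -5.66 (immature) on the Sirpa-positive arrays, against 2.34 and 2.30 (mature) and 3.72 and 3.91 (immature) on the Sirpa-negative arrays. It was 123-fold lower in Sirpa-positive cells (-6.95 ± 0.66 on the log2 scale, adjusted p = 0.000304), with 3 of 4 Sirpa-positive arrays above background. Clec9a, which recognises actin exposed by dead cells, stood at -3.86 and -3.40 (mature) and -3.02 and -3.0 (immature) on the Sirpa-positive arrays, against 1.93 and 2.38 (mature) and 2.65 and 3.35 (immature) on the Sirpa-negative arrays. Its difference was nearly the same in both states, -5.78 among mature and -6.01 among immature cells, and pooled it was 59.6-fold lower in Sirpa-positive cells (adjusted p = 3.12e-06). Xcr1, the receptor for Xcl1 and the surface marker of type 1 cells, stood at -4.55 and -3.99 (mature) and -3.13 and -3.79 (immature) on the Sirpa-positive arrays, against 0.88 and 0.87 (mature) and 2.27 and 2.23 (immature) on the Sirpa-negative arrays, 43.0-fold lower (adjusted p = 4.52e-06). Of the Sirpa-positive arrays, 3 measured Clec9a and 2 Xcr1.

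Other leading genes of the Sirpa-negative subset encode adaptors, receptors and peptidases. Gcsam, an adaptor known from germinal centre B cells, was at least 25.2-fold lower in Sirpa-positive cells, where no array measured it. Naalad2, a dipeptidase gene (at least 21.7-fold), Cltrn, or collectrin (at least 24.1-fold), Clnk, an adaptor of the SLP-76 family (at least 15.9-fold), and the Wnt receptor gene Fzd1 (at least 19.6-fold) were likewise above background on all 4 Sirpa-negative arrays and on none (0) of the Sirpa-positive ones. The lectin receptor gene Clec1a (55.2-fold), the chemoattractant-receptor relative Gpr33 (48.8-fold), the Notch receptor gene Notch4 (41.4-fold) and the tricellular junction gene Ildr1 (28.7-fold) were lower with at least 1 Sirpa-positive array above background.

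**Figure D3:**
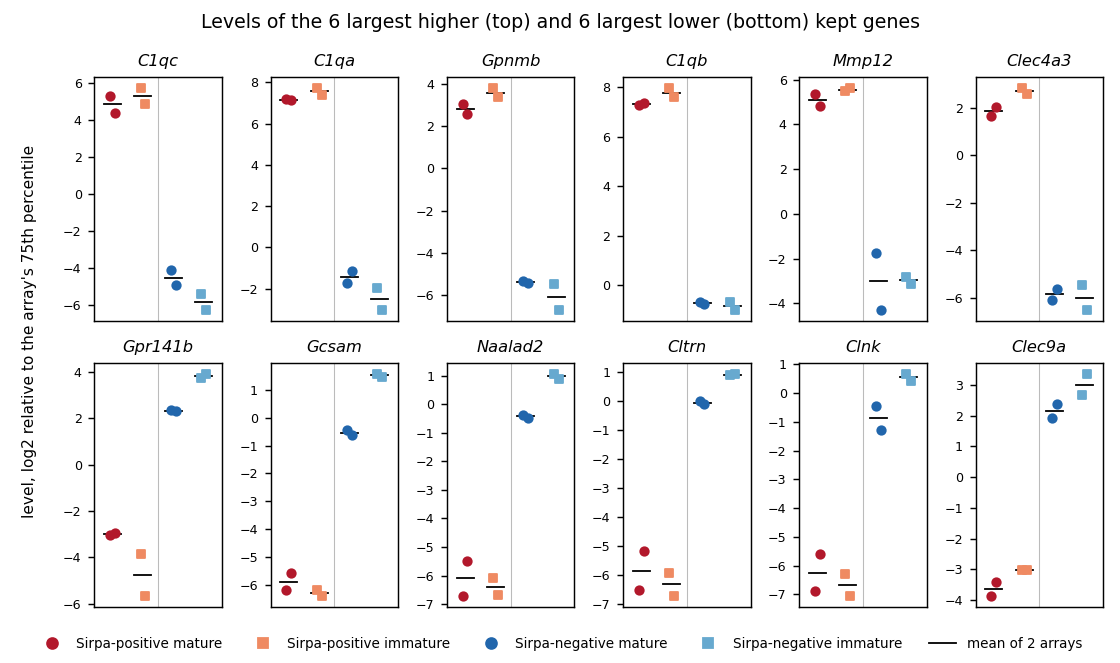
Level of the 6 largest higher and 6 largest lower kept genes on each of the 8 arrays, in log2 units relative to the array's 75th percentile, with a bar at the mean of 2 arrays. In all 12 genes the 4 Sirpa-positive arrays (red, left) stay clear of the 4 Sirpa-negative arrays (blue, right), whatever the state. The genes were chosen for large differences and for no overlap within either state, so this separation follows from the choice.

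Modest differences kept through maturation were called where the arrays of a group lay close together. Hgsnat, a lysosomal enzyme of heparan sulfate breakdown, had levels of 1.26 and 1.18 (mature) and 2.01 and 1.82 (immature) on the Sirpa-positive arrays, against 0.26 and 0.40 (mature) and 0.98 and 1.04 (immature) on the Sirpa-negative arrays. Its pooled difference was 0.90 ± 0.13 on the log2 scale, 1.86-fold (95% interval 0.60 to 1.20, adjusted p = 0.00268), and both states alone gave about that, 0.89 among mature and 0.90 among immature cells. The difference between those 2 values had a 95% interval from -0.64 to 0.62, so a state dependence inside that range would not have been seen. Gmpr, a purine salvage enzyme gene, was 1.87-fold higher, with levels of -1.66 and -1.60 (mature) and -1.14 and -1.27 (immature) on the Sirpa-positive arrays, against -2.56 and -2.60 (mature) and -2.02 and -2.10 (immature) on the Sirpa-negative arrays. Both genes were lower in mature than in immature cells of either subset, and the subsets did not overlap in either state.

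Vav2, a guanine nucleotide exchange factor, stood at 2.79 and 2.84 (mature) and 2.63 and 2.80 (immature) on the Sirpa-positive arrays, against 2.06 and 2.03 (mature) and 1.55 and 1.48 (immature) on the Sirpa-negative arrays, 1.98-fold higher (adjusted p = 0.00312). Cerk, ceramide kinase (1.90-fold), the collagen galactosyltransferase gene Colgalt1 (1.98-fold) and the kinesin gene Kif9 (1.98-fold) completed the modest higher genes named. A dimmer probe of Cerk gave 0.52 and did not pass singly (adjusted p = 0.0818), and of 4 Kif9 probes 2 passed singly, between 0.66 and 1.67 in all.

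Plin2, which coats lipid droplets, stood at 2.67 and 2.60 (mature) and 3.32 and 3.43 (immature) on the Sirpa-positive arrays, against 3.56 and 3.78 (mature) and 4.33 and 4.26 (immature) on the Sirpa-negative arrays and was 1.97-fold lower in Sirpa-positive cells (-0.98 ± 0.13 on the log2 scale, adjusted p = 0.00192). Dut, which removes dUTP during DNA synthesis, had levels of 0.85 and 1.12 (mature) and 2.11 and 2.06 (immature) on the Sirpa-positive arrays, against 1.84 and 1.81 (mature) and 3.05 and 3.11 (immature) on the Sirpa-negative arrays. Its difference was -0.84 among mature and -1.0 among immature cells, 1.89-fold pooled. Cks1b, a subunit of cyclin-dependent kinases, stood at 2.34 and 2.43 (mature) and 3.1 and 3.22 (immature) on the Sirpa-positive arrays, against 3.28 and 3.09 (mature) and 4.29 and 4.34 (immature) on the Sirpa-negative arrays, 1.97-fold lower. For Dut and Cks1b the Sirpa-positive immature and the Sirpa-negative mature arrays reached similar levels, so that the 4 Sirpa-positive and the 4 Sirpa-negative arrays overlapped, while the subsets did not overlap within either state. Ankrd12, an ankyrin-repeat gene (1.98-fold), Got2, the mitochondrial aspartate aminotransferase (1.99-fold), and Cnp, the nucleotide phosphodiesterase known from myelin (1.91-fold), were also lower. A dimmer Ankrd12 probe gave -0.27 (adjusted p = 0.278).

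**Figure D4:**
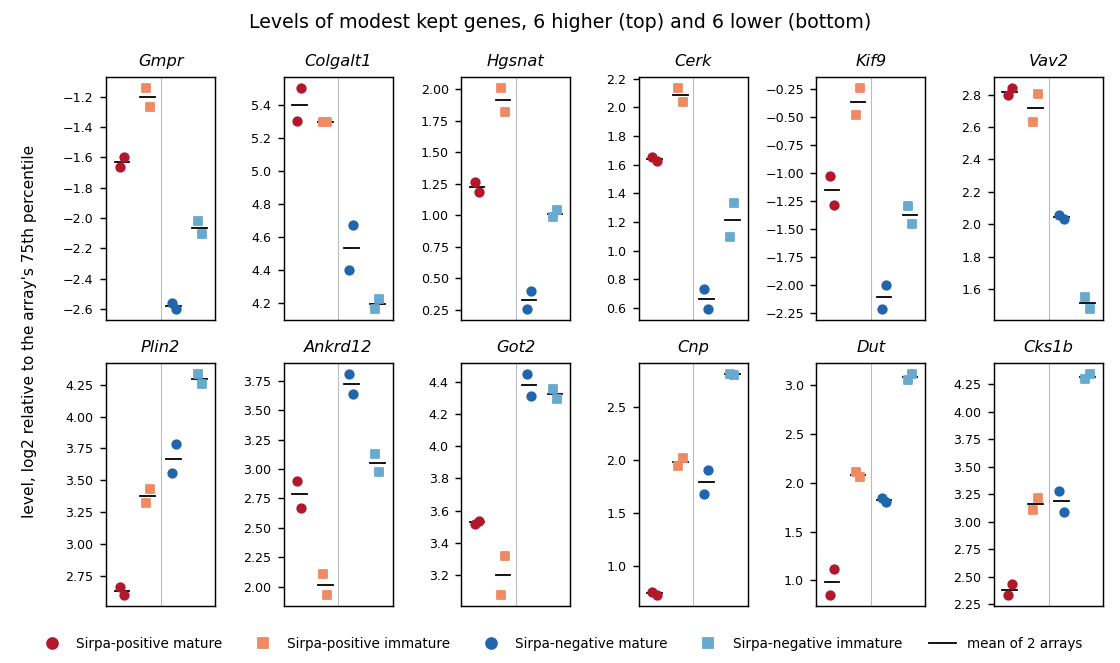
Level of 6 higher and 6 lower modest kept genes, each under 2-fold, on the 8 arrays in log2 units relative to the array's 75th percentile, with a bar at the mean of 2 arrays and separate y axes. Within mature and within immature cells the Sirpa-positive arrays (red, left) stand apart from the Sirpa-negative ones (blue, right), while both subsets shift with maturation in most panels. The separation within each state was a condition for choosing the genes.

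Modest kept genes were also found inside antigen presentation. Of 30 genes of the MHC class I pathway and cross-presentation, 8 were lower, 2 higher and 20 did not pass, with a median of -0.23. For this list and those below, the shares over all genes tested were 7.16% higher and 6.35% lower. The peptide transporter gene Tap1 stood at 2.44 and 2.73 (mature) and 1.90 and 2.25 (immature) on the Sirpa-positive arrays, against 3.33 and 3.23 (mature) and 3.11 and 3.11 (immature) on the Sirpa-negative arrays, 1.82-fold lower (adjusted p = 0.00816), and its partner Tap2 was 1.90-fold lower. Psme1 and Psme2, the proteasome activator subunits, were 1.96-fold and 1.60-fold lower, Tapbpl, a peptide editor, 2.16-fold, and Wdfy4, which type 1 cells need for cross-presentation, 2.93-fold (4.17 and 4.78 (mature) and 5.55 and 5.98 (immature) on the Sirpa-positive arrays, against 5.83 and 6.4 (mature) and 7.17 and 7.29 (immature) on the Sirpa-negative arrays). Cybb, the phagocyte oxidase subunit, went the other way at 30.8-fold higher (4.94 ± 0.14, adjusted p = 1.15e-06). Mr1 was 3.93-fold higher and not kept. Members of the list with negative values numbered 26 of 30, and between 17 and 23 under the 4 other scalings, while its calls stayed at 1 or 2 higher and 7 or 8 lower. Most genes tested had negative values too, with a median of -0.10 over all of them. With the slide row as a block Psme2 and Mr1 did not pass (adjusted p = 0.0807 and 0.0573), and they passed under 8 of 20 and 9 of 19 alternatives.

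In the MHC class II pathway 5 of 20 genes were higher, 1 lower and 14 did not pass (median 0.08). The 5 were proteases, among them Ctsd (32.0-fold), Ctsl (10.8-fold) and Ctss (1.91-fold). The gene that was lower, H2-Ob, encodes a chain of the inhibitor of peptide loading and stood at 2.92 and 3.37 (mature) and 3.73 and 3.89 (immature) on the Sirpa-positive arrays, against 4.13 and 4.35 (mature) and 5.12 and 4.82 (immature) on the Sirpa-negative arrays, 2.19-fold lower (adjusted p = 0.00259). Lysosomal proteases and their inhibitors had 17 of 26 genes higher and 5 lower (median 1.21). Cathepsin A, Ctsa, was 14.8-fold higher and Cst7, an inhibitor of cathepsins, 50.8-fold, while Naaa, an acid amidase of lipid breakdown, and Ppt1, a thioesterase, were 9.32-fold and 7.22-fold lower. Ppt1 stood at 3.24 and 3.05 (mature) and 4.13 and 3.89 (immature) on the Sirpa-positive arrays, against 5.75 and 6.05 (mature) and 6.92 and 6.99 (immature) on the Sirpa-negative arrays. The 5 higher class II genes became 3 without either immature array of either subset, and Ctss passed under 15 of 20 alternatives.

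Type 1 dendritic cell markers were mostly lower. Of 28 tested, 24 were lower in Sirpa-positive cells, 0 were higher and 4 did not pass, with a median of -2.42, and 21 were kept. Cd8a, the coreceptor chain that type 1 cells of mice carry, stood at 2.77 and 2.26 (mature) and 0.94 and 0.45 (immature) on the Sirpa-positive arrays, against 5.34 and 4.62 (mature) and 4.83 and 3.88 (immature) on the Sirpa-negative arrays, 8.35-fold lower, and a second probe gave -2.12. Cd24a, a surface glycoprotein, was 4.11-fold lower, the endosomal GTPase gene Rab7b 9.06-fold, the sorting nexin gene Snx22 8.2-fold and the adhesion molecule gene Cadm1 3.28-fold. The RNA sensor Tlr3 was 6.13-fold lower pooled and not kept, at -1.32 among mature and -3.91 among immature cells. It was above background on 2 of 4 Sirpa-positive arrays, both immature, so these sizes are approximate. Summed on the linear scale, the 28 markers reached 815 to 1784 times the 75th percentile on the Sirpa-positive arrays and 1413 to 2145 times on the Sirpa-negative arrays. These ranges overlap through Sirpa-positive mature replicate 6 alone (1784). The other Sirpa-positive arrays gave 815 (mature) and 982 and 964 (immature). The sort on Sirpa was made on these cells, so the direction of these markers is not independent of it.

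Type 2 dendritic cell markers had 18 of 30 higher, 0 lower and 12 that did not pass (median 2.36), and 15 were kept. Cd209a, a lectin related to human DC-SIGN, stood at -1.09 and -0.97 (mature) and 3.51 and 3.49 (immature) on the Sirpa-positive arrays, against -5.31 and -5.81 (mature) and -1.39 and -1.75 (immature) on the Sirpa-negative arrays. It was 27.8-fold higher (adjusted p = 4.06e-06), although the Sirpa-positive mature arrays only just exceeded the Sirpa-negative immature ones, and a second probe gave 3.32. Ccr2, the receptor that draws monocyte-related cells, was 16.7-fold higher, Clec10a, a galactose-binding lectin gene, 4.59-fold, Csf1r, the receptor for macrophage colony-stimulating factor, 2.70-fold, and Clec4a4, the antigen of antibody 33D1, at least 2.65-fold. Cd4, the T cell coreceptor that some type 2 cells also carry, was 8.39-fold higher (4.16 and 4.22 (mature) and 5.07 and 4.73 (immature) on the Sirpa-positive arrays, against 1.21 and 1.42 (mature) and 1.48 and 1.80 (immature) on the Sirpa-negative arrays). Itgam, which encodes CD11b, gave -0.07 ± 0.19 on the log2 scale for the brightest of its 3 probes (adjusted p = 0.849), whereas the 2 dim probes gave 1.45 and 1.53 and passed singly. Notch2, a receptor that some type 2 cells need, gave -0.14 ± 0.16 (adjusted p = 0.62), and Klf4 0.88 ± 0.25 (adjusted p = 0.0576). The summed markers reached 888 to 1231 on the Sirpa-positive arrays, against 779 to 829 on the Sirpa-negative arrays. Linear sums weigh bright probes most, and the brightest Itgam probe averaged 8.84 on the Sirpa-positive and 8.91 on the Sirpa-negative arrays.

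Markers shared by all conventional dendritic cells went both ways, with 2 of 18 higher, 3 lower and 13 that did not pass (median 0.05). Flt3, the growth factor receptor, had levels of 3.0 and 2.82 (mature) and 2.71 and 2.87 (immature) on the Sirpa-positive arrays, against 4.30 and 4.12 (mature) and 4.17 and 4.03 (immature) on the Sirpa-negative arrays. It was 2.47-fold lower in Sirpa-positive cells (-1.31 ± 0.13 on the log2 scale, adjusted p = 0.000481), with -1.30 among mature and -1.31 among immature cells and a second probe at -1.41. Bcl6, a repressor, was 3.02-fold lower and Bcl11a 2.13-fold higher. Itgax was 1.57-fold higher (adjusted p = 0.0402), and Zbtb46 was 1.53-fold lower at an adjusted p of 0.0499. The calls of Itgax and Zbtb46 ended with the slide row as a block (adjusted p = 0.0713 and 0.0869), and they passed under 11 and 8 of 20 alternatives. With an array left out the higher genes of this list numbered 0 to 2 (0 without either immature array of either subset or Sirpa-negative mature replicate 8), and the lower ones 2 to 6 (6 without Sirpa-positive mature replicate 6).

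Among 52 transcription factors of dendritic cell lineages 14 were higher, 9 lower and 29 did not pass (median 0.23). The myeloid factor gene Cebpa stood at 3.98 and 4.58 (mature) and 4.74 and 4.82 (immature) on the Sirpa-positive arrays, against 0.29 and 0.64 (mature) and 1.15 and 0.91 (immature) on the Sirpa-negative arrays. That was a 13.8-fold difference (3.78 ± 0.18, adjusted p = 1.04e-05), nearly equal in both states. Zeb2, a factor of monocyte and type 2 lineages, was 26.9-fold higher with 1 of 4 Sirpa-negative arrays above background, and Runx1 1.92-fold. Lower in Sirpa-positive cells were Mycl, which supports the fitness of dendritic cells in mice (6.36-fold), Ahr, the aryl hydrocarbon receptor (2.48-fold), Id2, the inhibitor of E proteins (3.43-fold), Irf5 (1.91-fold) and Zeb1 (1.61-fold). Id2 had -1.75 among mature and -1.80 among immature cells. Batf3 gave -0.76 ± 0.22 and did not pass (adjusted p = 0.0603).

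For Irf8 and Irf4 the fitted difference was smaller among mature than among immature cells, although neither passed the main test of the interaction given below. Irf8 stood at 5.35 and 5.97 (mature) and 4.66 and 4.79 (immature) on the Sirpa-positive arrays, against 6.79 and 6.86 (mature) and 7.6 and 7.53 (immature) on the Sirpa-negative arrays. It was 4.02-fold lower pooled (-2.01 ± 0.34, adjusted p = 0.00568) and not kept, at -1.16 among mature and -2.85 among immature cells. Irf4 had levels of 1.95 and 1.97 (mature) and 1.52 and 1.84 (immature) on the Sirpa-positive arrays, against 0.96 and 0.49 (mature) and -2.74 and -3.06 (immature) on the Sirpa-negative arrays. It was 7.49-fold higher pooled, with 1.23 among mature and 4.58 among immature cells. Its level in Sirpa-negative cells was higher in mature than in immature cells.

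The test of the interaction asks whether the subset difference itself changed with maturation. In limma the interaction of subset and maturation passed for none (0) of 24145 genes (0%), with 1945 at an unadjusted p under 0.05 and a smallest adjusted p of 0.0688. With normexp and quantile normalization 182 genes passed, with the authors' values 151, with probes above background on all 8 arrays 101 and with trended and robust variances 186. Axl, a receptor for bridges to dying cells, had levels of 4.35 and 4.31 (mature) and 4.67 and 4.57 (immature) on the Sirpa-positive arrays, against 2.40 and 1.77 (mature) and -2.54 and -3.11 (immature) on the Sirpa-negative arrays. The difference was 2.25 among mature and 7.45 among immature cells (interaction -5.20, 95% interval -6.16 to -4.25, adjusted p = 0.0688). Apobec1, a cytidine deaminase, gave 2.74 and 5.52, and Gpr4, a proton-sensing receptor, -1.43 and -4.69, in the order mature and immature. These 3 and Irf4 had the smallest interaction p among genes that passed the pooled test. In each the subsets did not overlap in either state, and the difference was larger among immature cells. For Gpr4 the probe used gave -3.06 pooled. A dimmer Gpr4 probe, of mean level -4.11, gave -0.92 and did not pass singly in limma (adjusted p = 0.252).

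Among sensors of microbes more genes were higher than lower in Sirpa-positive cells. Toll-like receptors and their adaptors had 11 of 26 higher and 2 lower (median 0.48). Tlr1, which pairs with Tlr2 to sense lipopeptides, was 13.4-fold higher (2.18 and 1.73 (mature) and 2.14 and 1.88 (immature) on the Sirpa-positive arrays, against -0.95 and -1.85 (mature) and -1.85 and -2.38 (immature) on the Sirpa-negative arrays), Tlr2 3.29-fold, and the adaptor gene Ticam2 at least 7.74-fold. Tlr7, a sensor of single-stranded RNA, was 5.73-fold higher, with 4.81 on the log2 scale for a second probe, and Tlr8 at least 1.94-fold, with 3 of 4 Sirpa-positive arrays above background. Tlr11, the mouse receptor for profilin of protozoa, was 9.71-fold lower. Of 22 genes listed as nucleotide and RNA sensors, not all of which are sensors themselves, 9 were higher and 0 lower (median 0.49). Among the 9 were Naip2 (3.06-fold), a sensor of bacterial secretion systems, and Nlrp3 (1.79-fold, not kept). The cytokine gene Il1b (7.09-fold), the adaptor gene Mavs (1.76-fold) and the protease gene Casp1 (2.38-fold, not kept) were others. Nlrp3 did not pass with the slide row as a block (adjusted p = 0.0584).

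C-type lectin receptors had 16 of 26 higher and 5 lower (median 2.44), with Clec1b, the podoplanin receptor, among the modest ones (1.82-fold). Inhibitory and paired myeloid receptors had 20 of 35 higher and 2 lower (median 1.28). Besides Sirpa itself, its relatives Sirpb1a (44.8-fold), Sirpb1b (at least 33.8-fold) and Sirpb1c (at least 20.9-fold) were higher, and cross-hybridisation between their probes was not tested. The sialic acid receptor gene Cd33 was 39.2-fold higher with 2 of 4 Sirpa-negative arrays above background, and Lilrb4a 29.6-fold with 3 of 4. Tyrobp, the adaptor of many activating receptors, stood at 7.26 and 7.68 (mature) and 7.66 and 7.63 (immature) on the Sirpa-positive arrays, against 6.6 and 6.68 (mature) and 6.51 and 6.51 (immature) on the Sirpa-negative arrays, 1.98-fold higher (adjusted p = 0.00386), and the kinase gene Syk was 1.98-fold higher. Treml4 and Klrb1b were lower (4.67-fold and 2.58-fold) and not kept.

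Fc receptors and their signalling chains had 7 of 17 higher and 3 lower (median 0.40). Fcgr3 and Fcgr2b, the activating and the inhibitory receptor for IgG, were 20.6-fold and 14.4-fold higher. Fcrla was 9.34-fold lower with 2 of 4 Sirpa-positive arrays above background, Fcgrt, the recycling receptor for IgG and albumin, 2.19-fold and the phosphatase gene Inpp5d 1.54-fold. Complement had 11 of 19 higher and 0 lower (median 2.41), 10 of them kept. C3, the central component, stood at 4.88 and 4.71 (mature) and 5.12 and 4.76 (immature) on the Sirpa-positive arrays, against 0.22 and 0.26 (mature) and 0.40 and 0.29 (immature) on the Sirpa-negative arrays, 23.9-fold higher (4.58 ± 0.14, adjusted p = 1.94e-06), with 4.55 among mature and 4.60 among immature cells. Cfb of the alternative pathway was 101-fold, C2 29.2-fold and C3ar1, the receptor for C3a, 35.1-fold higher. Inpp5d did not pass with the slide row as a block (adjusted p = 0.0744) and passed under 7 of 20 alternatives, and the lower Fc receptor genes numbered 1 without Sirpa-positive immature replicate 3.

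Chemokine receptors had 8 of 17 higher and 2 lower (median 1.22). Cxcr3, the receptor for interferon-induced chemokines, stood at -4.35 and -5.44 (mature) and -2.78 and -3.0 (immature) on the Sirpa-positive arrays, against -0.74 and -0.92 (mature) and 1.96 and 1.66 (immature) on the Sirpa-negative arrays and was 20.8-fold lower, and Ccr7 gave -0.93 ± 0.41 without passing (adjusted p = 0.186). Chemokines had 11 of 22 higher and 2 lower (median 0.91). Ccl6 was 15.8-fold higher (3.1 and 3.04 (mature) and 3.94 and 4.13 (immature) on the Sirpa-positive arrays, against -0.41 and -0.45 (mature) and -0.48 and -0.37 (immature) on the Sirpa-negative arrays) and Pf4, a platelet and macrophage chemokine, at least 24.1-fold. Cxcl9, a ligand of Cxcr3, was 3.15-fold lower and Xcl1, the ligand of Xcr1, at least 1.42-fold, seen on 2 Sirpa-negative arrays. Interleukins and cytokine receptors had 16 of 42 higher and 3 lower (median 0.42). They included Il1rn, the interleukin 1 receptor antagonist (40.8-fold), Ifnar2, a chain of the type I interferon receptor (1.98-fold), and, lower, Ebi3, a subunit of interleukins 27 and 35 (1.77-fold).

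Receptors and bridges for dying cells had 10 of 24 higher and 2 lower (median 1.12). Stab1, a scavenger receptor gene, was 31.4-fold higher, Itgb5, an integrin chain that binds Mfge8, 23.7-fold, and Timd4, a phosphatidylserine receptor gene, 3.58-fold. Cd36, a scavenger receptor for lipids and apoptotic cells, was 14.8-fold lower in Sirpa-positive cells (-3.22 and -3.42 (mature) and -3.23 and -4.0 (immature) on the Sirpa-positive arrays, against -0.26 and 0.09 (mature) and 0.78 and 1.07 (immature) on the Sirpa-negative arrays), in the same direction as Clec9a. Integrins and adhesion molecules had 6 of 36 higher and 5 lower (median -0.26), with Itga9 at least 18-fold higher and Itga5 1.68-fold higher, and with Itga3 4.29-fold lower and Selplg, the P-selectin ligand, 1.63-fold lower. Notch genes had 1 of 26 higher and 5 lower (median 0.06), beside 7.16% higher and 6.35% lower over all genes tested. Notch4 stood at -3.45 and -1.91 (mature) and -2.12 and -1.64 (immature) on the Sirpa-positive arrays, against 1.96 and 2.60 (mature) and 3.95 and 3.85 (immature) on the Sirpa-negative arrays, the ligand gene Jag2 was at least 2.90-fold lower, the Notch inhibitor gene Numb 1.57-fold lower and the protease gene Adam10 1.58-fold higher. With the slide row as a block Selplg and Adam10 did not pass (adjusted p = 0.0748 and 0.0675), and they passed under 7 and 9 of 20 alternatives. Adam10 was the 1 higher gene of the Notch list, which then held 0.

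Costimulatory and coinhibitory molecules had 6 of 28 higher, 3 lower and 19 that did not pass (median 0.14). Cd86, a ligand of CD28, stood at 1.60 and 2.01 (mature) and 1.12 and 0.96 (immature) on the Sirpa-positive arrays, against 2.96 and 2.84 (mature) and 2.92 and 2.97 (immature) on the Sirpa-negative arrays. It was 2.83-fold lower in Sirpa-positive cells (-1.5 ± 0.20, adjusted p = 0.00196) and kept. Btla, an inhibitory receptor, was 2.96-fold lower, and Tnfsf8, the CD30 ligand, 12.7-fold higher. Cd40 had levels of 5.30 and 5.07 (mature) and 3.24 and 2.82 (immature) on the Sirpa-positive arrays, against 5.97 and 5.11 (mature) and 2.54 and 2.46 (immature) on the Sirpa-negative arrays, a difference of 0.08 ± 0.26 that did not pass (adjusted p = 0.877), with a 95% interval of -0.51 to 0.68. Genes of dendritic cell maturation and migration had 6 of 36 higher and 4 lower (median -0.12). Of these 10, 4 were kept, Cst7 among them, and Fabp5, a fatty acid carrier (4.76-fold higher), was not. Without Sirpa-positive mature replicate 1 the higher costimulatory genes numbered 3, and the higher maturation genes numbered 3 with the row block and 2 to 6 with an array left out (2 without Sirpa-positive immature replicate 3).

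Metabolic and lipid genes gave some of the widest and some of the most modest kept differences. Lipid and cholesterol handling had 11 of 29 higher and 3 lower (median 0.48). Apoe, the lipoprotein of macrophages, stood at 8.01 and 8.25 (mature) and 8.84 and 8.15 (immature) on the Sirpa-positive arrays, against 0.89 and 1.19 (mature) and 0.98 and 0.28 (immature) on the Sirpa-negative arrays, 178-fold higher (adjusted p = 2.80e-06), and Nr1h3, the sterol receptor LXR alpha, was 16.7-fold higher. Hmgcs1, an enzyme gene of cholesterol synthesis, was 1.49-fold higher. The lysosomal lipase gene Lipa was 1.78-fold and the cholesterol-esterifying enzyme gene Soat1 1.69-fold higher. Of 27 glycolytic genes 5 were higher and 2 lower (median 0.09), with Eno1 at 1.75-fold and Pfkfb4 at 4.26-fold higher and Pgk1 at 1.71-fold and Pfkp at 2.14-fold lower. Eicosanoid enzymes and receptors had 12 of 28 higher and 1 lower (median 1.14), led by Pla2g7, the platelet-activating factor hydrolase (113-fold). The 1 lower gene was Ptgdr2, a prostaglandin D2 receptor (1.73-fold). Hmgcs1 did not pass with the slide row as a block (adjusted p = 0.0694), and the lower glycolytic genes numbered 0 without Sirpa-positive immature replicate 3, Sirpa-positive mature replicate 1 or Sirpa-negative immature replicate 7.

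Cell cycle and DNA replication had 6 of 37 lower, 1 higher and 30 that did not pass (median -0.37). Mki67, the proliferation marker, stood at 1.5 and 1.60 (mature) and 2.33 and 2.62 (immature) on the Sirpa-positive arrays, against 2.29 and 2.32 (mature) and 3.03 and 2.83 (immature) on the Sirpa-negative arrays, 1.52-fold lower (adjusted p = 0.0287). Rrm2, a ribonucleotide reductase subunit, was 1.72-fold lower, Cdc20 1.53-fold, Cdkn2c 1.60-fold and Cdk1 2.45-fold, the last not kept. Ccnd2, a cyclin, was 2.20-fold higher. The number of lower genes was 3 with median scaling or with the slide row as a block, 2 with no filter and 7 with normexp and quantile normalization. It was 2 without Sirpa-positive immature replicate 3 or Sirpa-positive mature replicate 1, and 3 without either Sirpa-negative immature array or Sirpa-negative mature replicate 8. Mki67 and Cdc20 did not pass with the row block (adjusted p = 0.0594 and 0.0788). Interferon-stimulated genes had 7 of 28 higher and 2 lower (median 0.45), the latter near the 6.35% that were lower over all genes tested. Ifit3 was 33.8-fold (5.28 and 5.59 (mature) and 5.70 and 5.92 (immature) on the Sirpa-positive arrays, against 0.86 and 1.28 (mature) and -0.19 and 0.22 (immature) on the Sirpa-negative arrays) and Rtp4 21.2-fold higher. Bst2 was 1.68-fold higher, and Ifi35 and Stat2 were 1.47-fold and 1.43-fold lower. Stat2 and Ifi35 did not pass with the slide row as a block (adjusted p = 0.0744 and 0.0542), with median scaling or with the authors' values, and they passed under 6 and 10 of 20 alternatives. The lower interferon genes numbered 0 with the row block, with median scaling and with no filter, and 0 or 1 with an array left out, while the higher ones numbered 7 to 12 (12 without Sirpa-negative mature replicate 2).

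**Figure D5:**
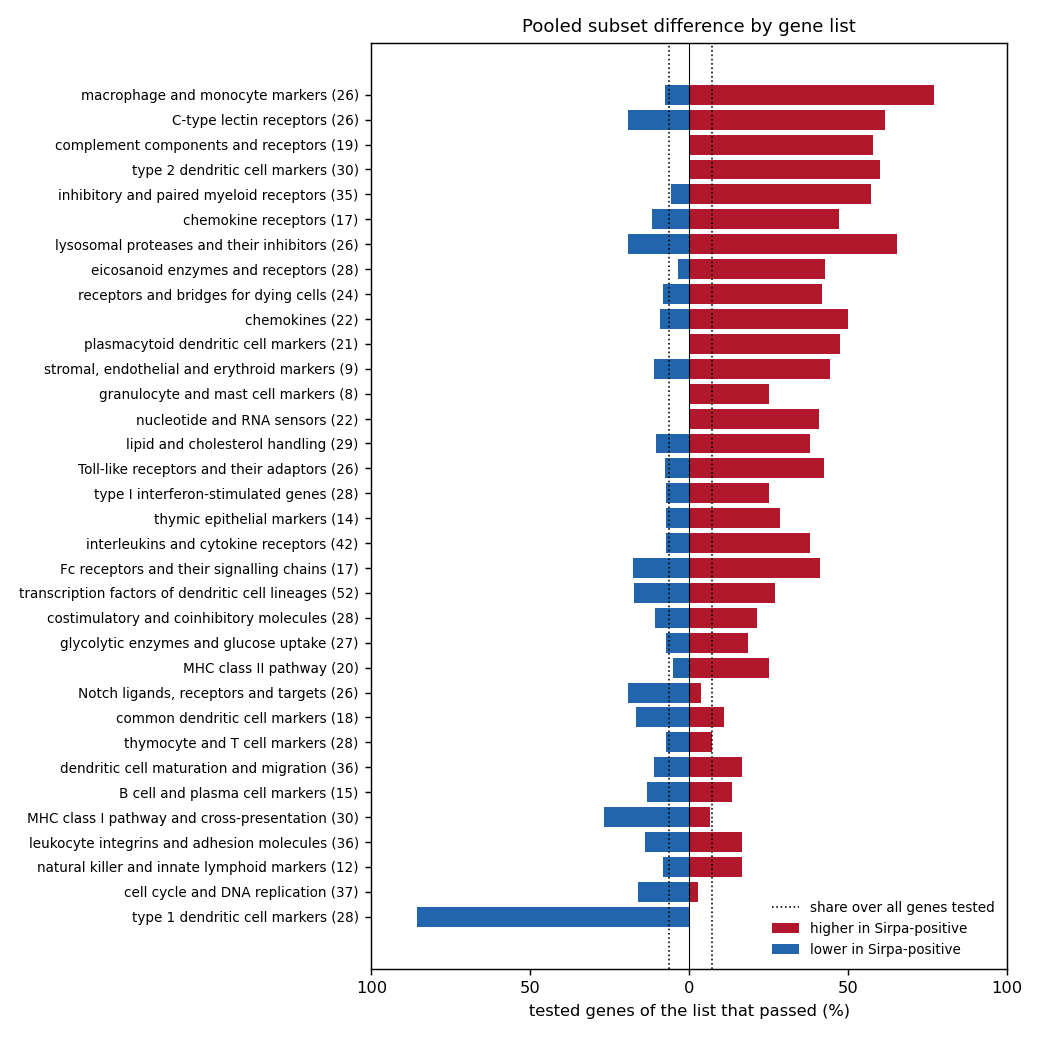
Share of each list's tested genes (number in brackets) that passed the pooled test, with genes higher in Sirpa-positive cells to the right (red) and lower ones to the left (blue), beside dotted lines at the shares over all genes tested, 7.16% and 6.35%. Macrophage and monocyte markers have 20 of 26 to the right and type 1 dendritic cell markers 24 of 28 to the left.

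Markers of other cells moved with the subset as well. Of 26 macrophage and monocyte markers 20 were higher in Sirpa-positive cells, 2 lower and 4 did not pass (median 2.58), and 16 were kept. Their summed signal ran from 893 to 1422 times the 75th percentile on the Sirpa-positive arrays, with 24 to 26 of 26 above background, against 112 to 193 on the Sirpa-negative arrays, with 20 to 22 above background. Adgre1, an adhesion receptor that marks macrophages, stood at 4.24 and 4.33 (mature) and 5.28 and 4.75 (immature) on the Sirpa-positive arrays, against -1.01 and -1.0 (mature) and -0.23 and 0.05 (immature) on the Sirpa-negative arrays, 36.8-fold higher, and Mertk, a receptor for dying cells, was 6.74 higher on the log2 scale with 1 of 4 Sirpa-negative arrays above background. Cd14 was 5.25-fold, Siglec1 4.91-fold, Fcgr1 6.14-fold, Vcam1 4.67-fold and the lysozyme gene Lyz2 114-fold higher, while Marco gave 0.80 and did not pass (adjusted p = 0.191). These markers moved with every group of genes given above as higher in Sirpa-positive cells, and their part in those results was not tested. The list shares C1qa, C1qb, C1qc, Csf1r, Timd4, Fcgr1 and others with the lists above. Vcam1 did not pass with the slide row as a block (adjusted p = 0.0545).

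The remaining marker lists are given by their counts. Plasmacytoid markers had 10 of 21 higher and 0 lower (median 0.75), among them Lag3 (6.58-fold) and Lair1 (12.1-fold), while Siglech, their defining lectin, gave -0.24 (adjusted p = 0.414) and was above background on all 8 arrays. Of other defining markers, Ccr9 gave -0.69 (adjusted p = 0.0906) and Ly6d -0.66 (adjusted p = 0.217) without passing. Bst2 passed at 0.745 on the log2 scale (adjusted p = 0.0113). The 28 markers of thymocytes and T cells held 2 that were higher (Cd4 and Thy1, 1.53-fold) and 2 lower (Dntt, 1.67-fold, and Cd8b1, 2.57-fold), while 24 did not pass. Those counts are near the shares over all genes tested, 7.16% higher and 6.35% lower. Among mature arrays the summed thymocyte markers overlapped, 71.4 and 78.1 on the Sirpa-positive against 75.9 and 72.2 on the Sirpa-negative arrays. Among immature arrays they did not, 58.5 and 53.0 against 26.9 and 29.9. B cell and plasma cell markers had 2 of 15 higher (Cd79b and Blnk) and 2 lower (Fcrla and Mzb1). Natural killer and innate lymphoid markers had 2 of 12 higher (Rora and Klri2) and 1 lower (Klra8), and granulocyte and mast cell markers 2 of 8 higher (Prg2 and Ltf). Thymic epithelial markers had 4 of 14 higher, among them the cathepsin gene Ctsl and Pax1 (at least 2.10-fold), and 1 lower. Krt5 passed at 1.22 on the log2 scale (adjusted p = 0.0189), while Foxn1 (0.14, adjusted p = 0.775) and Epcam (0.90, adjusted p = 0.275) did not. Stromal, endothelial and erythroid markers had 4 of 9 higher and 1 lower, with Acta2 1.65-fold and Pecam1 3.11-fold higher and Alas2 1.97-fold lower. Their part in the subset differences was not tested. With the slide row as a block Thy1 and Ltf did not pass (adjusted p = 0.0506 and 0.0508). With an array left out the higher stromal markers numbered 1 to 4 (1 without Sirpa-positive immature replicate 5) and the higher epithelial ones 2 to 4 (2 without Sirpa-positive immature replicate 3).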

How the data were processed

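RNA of sorted thymic dendritic cells, amplified and labelled with Cy3, was hybridised to 8 Agilent 1-colour arrays, in 4 groups of 2. The scanner files hold spot intensities, which per the file headers came from Feature Extraction 10.7.3.1 with background subtraction and spatial detrending, whereas the submitters' processing notes name version 10.5. Which version made the files remains unknown. A table of processed log2 values was also deposited; the notes name limma for it, with neither version nor settings. Its scale was read off its values, which rise with the scanner signal, and it served only as an alternative.

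Control spots and outlier spots were left out, and spots of a probe were averaged, which gave 55681 probes from 59305 spots. Levels are log2 processed signals from which the 75th percentile of the same array was subtracted. Probes not well above background on the 2 arrays of any group were dropped, and 33686 remained. Accessions were named through RefSeq's GRCm38.p6 table, matched without versions: 26582 probes received a symbol and 29099 did not. The probe brightest over the 8 arrays stood for a gene, which left 24145 genes or accessions, 13865 with a symbol, of which 5871 had several kept probes. The headers give mm9 as the array design's build, and coordinates are given only for RefSeq promoters.

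Pooled differences came from limma 3.58.1 in R 4.3.3 with subset and maturation as additive terms (5 residual and 3.19 prior degrees of freedom), and the within-state differences and the interaction from a model with both terms and their product. All p-values are two-sided, adjusted by Benjamini and Hochberg's method over all genes tested and called under 0.05. The script was tested on simulated data. With 4 arrays per subset the number of arrays limits the precision, and the median SE was 0.20. Lists were described by counts and medians. Of 996 entries in 35 lists, 971 were on the array, 864 passed the filter and were tested, and 25 found no probe and were not used here.

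Among genes with a symbol, those named were the 12 largest higher and 12 largest lower kept genes that did not overlap in either state and were above background throughout the higher subset; 6 higher and 6 lower modest kept genes with the smallest p among those above background on all 8 arrays and not overlapping in either state; 4 genes with the smallest interaction p among called genes and 4 with the smallest interaction p among those of opposite signs; up to 2 higher and 2 lower members per list, by p; and a fixed set with Sirpa, Cd40, Ccr7 and lineage markers. A further 57 named genes, list members and markers, were chosen after their values were seen. The comparison, the lists and their members were chosen with earlier results of these data known, so no list is independent support. Alternatives covered background correction, scaling, the authors' values, the filter, several probes per gene, the slide row, title numbers, variance models and each array left out. A few named genes are not reported here.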

Additional observations from a re-analysis of the deposited data

Results flagged for a closer look

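Kcne3, Src and Grhl3 had subsets that did not overlap in either state and differed in opposite directions, a pattern that 837 of 24145 genes (3.47%) showed. The interaction was tested and did not pass for these 3 genes (adjusted p = 0.0688 each). Kcne3, a potassium channel subunit, differed by -0.97 among mature and 3.32 among immature cells (Sirpa-positive minus Sirpa-negative, log2 scale), an interaction of -4.285. Its levels were -2.86 and -2.89 (mature) and -0.21 and 0.10 (immature) on the Sirpa-positive arrays, against -1.56 and -2.26 (mature) and -3.38 and -3.37 (immature) on the Sirpa-negative arrays. On Sirpa-negative immature replicate 4 the level of Kcne3 lay under the lowest signal above background of any probe (-3.3). The immature difference and the interaction of Kcne3 are thus approximate. Src, a tyrosine kinase, differed by -0.92 among mature and 1.91 among immature cells, an interaction of -2.831. Its levels were 3.02 and 2.97 (mature) and 2.19 and 2.18 (immature) on the Sirpa-positive arrays, against 3.94 and 3.90 (mature) and 0.57 and -0.01 (immature) on the Sirpa-negative arrays.

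Grhl3, a transcription factor of epithelia, went the other way, with 2.50 among mature and -0.89 among immature cells, an interaction of 3.395. It was above background on the 2 Sirpa-positive mature arrays alone, so the immature difference lies between signals below background. Ramp3 did not share the pattern. This gene, a partner of the calcitonin receptor family, had an interaction of -2.99 with -0.08 among mature and 2.90 among immature cells, and its subsets overlapped when mature (adjusted p = 0.0688).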

How the results depend on the processing

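Of 205 named genes 195 passed; 152 of these passed under every one of 20 alternatives that could test them, 43 missed at least 1, and 0 changed direction. All 195 had the same sign in both slide rows, which together make up the pooled difference, so this is no separate support. The total of 3263 called genes was 2099 with no filter on dim probes, which tests more genes, 2034 at a 2-fold minimum, 2714 with a block for the slide row, and 2137 to 3723 with an array left out (2137 without Sirpa-positive immature replicate 3). The 1534 lower genes became 856 with no filter and 869 to 1929 with an array left out, with 869 without Sirpa-positive immature replicate 3 and 964 without replicate 5. The number of genes with a kept difference, 2627, was 1320 where the smaller difference had to reach 0.75 of the larger. The modest calls, 1229, numbered 352 without the filter, 777 with the row block, 2142 with the authors' values and 2518 with normexp and quantile normalization. With an array left out they numbered 464 to 726, except 1050 without Sirpa-negative mature replicate 2 and 1484 without Sirpa-positive mature replicate 6. Of the 1038 modest kept genes, 1035 or more kept their direction under each alternative that tested them all, but fewer kept their call, 337 with no filter, 695 with the row block, 743 with median scaling and 392 to 822 with an array left out (392 and 435 without Sirpa-positive immature replicates 3 and 5).

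No gene (0) passed the interaction, against 182 with normexp and quantile normalization, 151 with the authors' values, 101 with probes above background on all 8 arrays, 186 with trended and robust variances, 4 with the mean of a gene's probes, 2 with the number set as a block, 1 with median scaling and 0 to 1 with an array left out. Itgam, which did not pass, changed sign with normexp and quantile normalization (0.19), quantile normalization (0.15), the authors' values (0.19), the mean of its probes (0.97, adjusted p = 0.00479) and within row 2 (0.15), and lay between -0.25 and 0.015 with an array left out. Cd40 gave -0.16 within row 1 and lay between -0.087 and 0.34 with an array left out. The probe mean includes 2 Itgam probes of mean level -0.86 and -1.02 that gave 1.45 and 1.53; for the other changes the cause was not tested. No paired analysis was possible because the labels give no arrays the same replicate number. The slide rows and the sets of title numbers 1 to 4 and 5 to 8 hold 1 array of every group, and as blocks they gave 2714 and 3504 calls, but no label says that they pair arrays. A level below background is only a bound, which limits the folds of dim probes.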

Other observations

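A few gene families outside the lists, chosen after their values were seen, are given as values. Over all genes tested 7.16% were higher and 6.35% lower in Sirpa-positive cells. The median over all genes was -0.10, so most genes had negative values. Of 11 cathepsin genes, lysosomal proteases, 9 were higher in Sirpa-positive cells and 0 lower (median 1.67 on the log2 scale, 1.09 among mature and 2.25 among immature cells), and 5 were kept. Of 11 genes of the Ms4a family of membrane proteins, 6 were higher and 0 lower (median 1.92, but 0.45 with normexp and quantile normalization and 0.75 with the authors' values). Ms4a6d was 32.4-fold higher (adjusted p = 2.50e-06 in limma) and above background on all 8 arrays, as were Tmem119, a membrane protein gene known as a marker of microglia (24.6-fold), and Rnase2a, a secreted ribonuclease gene (32.6-fold).

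Of 38 proteasome subunit genes 5 were lower and 0 higher, with 36 negative values and a median of -0.32, and 4 of the 5 differed by less than 2-fold. The lower calls numbered 1 with median scaling or the slide row as a block, 1 to 5 with an array left out (1 without 6 of the 8 arrays, the exceptions being Sirpa-negative mature replicate 2 and Sirpa-positive mature replicate 6) and 7 with normexp and quantile normalization. Of 77 ribosomal protein genes 1 was higher and 1 lower, with 72 negative values and a median of -0.30. The lower ones numbered 0 to 19 with an array left out (19 without Sirpa-positive mature replicate 6, 0 or 1 otherwise). That median was -0.24 with median scaling and -0.10 with quantile normalization, while the median over all genes was -0.10 under the 75th percentile scaling.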
